A study of Saccharomyces cerevisiae with 26 samples.

Results

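The arrays described here are those of the sfp1 deletion strain of Saccharomyces cerevisiae at 10 and 30 min after a glucose pulse, pooled as 1 group of 4 arrays and set against the 3 steady state arrays of the same strain. They make up 7 of the 26 arrays of the series. The members were taken by their labels of strain and time, and this choice was made with earlier results of these data known. The strain was labelled as MATa with the MAL2-8c and SUC2 alleles, a mutant leu2 allele and sfp1Δ::KlLEU2. Every deletion array, at steady state as after the pulse, thus carried both the loss of SFP1 and a leu2 mutation with the KlLEU2 marker. For comparison, 7 arrays of the reference strain CEN.PK113-7D, whose SFP1 and LEU2 are intact, were grouped in the same way. The steady state was a glucose-limited, aerobic chemostat kept at 30 °C and pH 5.0 and diluted at 0.10 per h. The pulse was 200 mM glucose, given after the change to nitrogen, so abundant glucose and the loss of oxygen came together in both strains and cannot be told apart. The design text states that steady state was sampled from 3 independent cultures and the time course from 2. The 4 pulse arrays therefore may come from 2 cultures, and p-values that count them as 4 samples may be too small.

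Budding yeast kept short of glucose respires it, makes high-affinity glucose transporters and stores glycogen and trehalose. When glucose becomes abundant, the sensors Snf3 and Rgt2 lead to the breakdown of Mth1, which lifts repression of low-affinity transporter genes such as HXT1, while the repressor Mig1 and protein kinase A shut off respiratory, gluconeogenic and stress genes. The same signals start the production of ribosomes, and Sfp1, a zinc finger activator controlled by the TOR and protein kinase A pathways, is one of the factors known to turn on ribosomal protein and ribosome assembly genes in that response.

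The 4 pulse arrays were unlike each other, and that spread bears on every result below. Values are signals of the authors' scaled arrays, given in the order 10 min replicate 1, 10 min replicate 2, 30 min replicate 1 and 30 min replicate 2. Changes are differences of mean log2 signal, pulse minus steady state, with signals under 12 (the floor) set to 12. Across genes, the change on 10 min replicate 1 correlated at 0.516 and 0.482 with the changes on the reference 10 min arrays and at 0.249 and 0.207 with those on the reference 30 min arrays. For 30 min replicate 2 the values were 0.520 and 0.488 against 0.283 and 0.245, so the array labelled 30 min was also the more alike to the reference at 10 min. The other arrays lay the opposite way. The change on 10 min replicate 2 correlated at 0.565 and 0.547 with reference 10 min and at 0.792 and 0.779 with reference 30 min. For 30 min replicate 1 the values were 0.584 and 0.599 against 0.812 and 0.820. Genes are not independent replicates, so these correlations are descriptions, and no p is given. Pooling the times leaves the results the same whether or not the replicate 2 labels of 10 and 30 min were exchanged.

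Of 4 ratios between probe sets along 1 transcript, the actin middle to 3' ratio parted the pulse arrays in the same way and the others did not. The actin middle to 3' ratio, from probe sets along the same transcript, which is low where RNA is broken or copied incompletely, was 0.207 on 10 min replicate 2 and 0.176 on 30 min replicate 1, against 0.872 on 10 min replicate 1, 0.848 on 30 min replicate 2 and 0.575 to 0.735 on the steady state arrays. The actin 5' to 3' ratio was 0.00322 on 30 min replicate 1 and 0.147 on steady state replicate 1, and 0.652 to 0.968 on the other 5. The 5' to 3' ratio of SRB4 was 0.0208 on 30 min replicate 1, 0.0683 on steady state replicate 1 and at least 0.209 elsewhere. For SPT15 it was 0.152 on 30 min replicate 1 and 0.233 on 10 min replicate 1, while 10 min replicate 2 had the highest of the 7 values, 0.527. The array codes in the labels begin with MA on both replicate 2 arrays and with ES on the other 5 arrays. On all 7 arrays 86.6% to 90.9% of 5656 genes were above the floor, and the median signal lay between 33.2 and 48.2. Because the arrays were scaled, a smaller share of a transcript in the RNA, fewer copies per cell and fewer cells that carry it cannot be told apart.

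SFP1 was absent or present as labelled. The deletion arrays gave SFP1 (YLR403W) signals of 0.2 to 2.9, all under the floor, and in the reference strain it averaged 105 ± 9.17 (SD, n = 3) at steady state and 169.6 ± 26.5 (SD, n = 4) after the pulse. LEU2 (YCL018W), an enzyme of leucine synthesis, gave 501, 471 and 496 at steady state and 922, 2577, 2475 and 1324 after the pulse. All pulse arrays of LEU2 exceeded all steady state arrays (log2 1.77, SE 0.39, limma adjusted p = 0.030). The deletion strain holds a mutant leu2 allele and the KlLEU2 marker, and which of them this probe set reads was not tested. The label MATa was set against mating type markers: 7 a-specific genes summed to 8146 to 8686 at steady state and 5664 to 16866 after the pulse. The 4 alpha-specific genes summed to 708.6 to 827.7 and 680.3 to 886.8. Most of that was MF(ALPHA)1 (YPL187W), the alpha factor precursor, with 721, 699 and 604 and then 604, 767, 772 and 797, while MF(ALPHA)2 was at the floor on all 7 arrays. In the reference strain MF(ALPHA)1 was at 62 ± 8.6 at steady state (SD, n = 3) and 71.3 ± 7.91 after the pulse (SD, n = 4), far below its level in the deletion strain, and why was not tested. Of the 10 genes tested ASG7 alone passed the test, as lower.

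In the test of the pooled change, 109 of 5283 genes rose (2.06%) and 459 fell (8.69%) at a limma adjusted p under 0.05. Of these, 94 rose and 357 fell at least 2-fold. All of them had pulse arrays that did not overlap the steady state arrays, which was also true of 374 genes on the high side (7.08%) and 1442 on the low side (27.3%) among all genes tested. The excess of falling genes depended on the scaling. The median gene lay at -0.29 as deposited, at 0.06 after quantile normalization and at 0.15 with a common median, and the calls were then 153 higher and 111 lower, and 239 higher and 114 lower. Of the 109 genes that rose, 101 rose after quantile normalization and 109 with a common median. Of the 459 that fell, 107 and 114 did. Changes below should be read against the median gene at -0.29, and a fall near that size is not a fall relative to other genes. Counts of called genes in the lists below should be read beside 2.06% higher and 8.69% lower over all genes tested. At an unadjusted p under 0.05 by limma, 320 of the 5283 genes were higher and 1247 lower. List counts at that threshold should be read beside these.

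The number of calls changed with the arrays used. Without steady state replicate 1 it gave 27 higher and 56 lower, without replicate 2 it gave 26 and 64, and without replicate 3 it gave 30 and 84. Leaving out 10 min replicate 1 gave 173 higher and 543 lower, and leaving out 10 min replicate 2 gave 78 and 271. Leaving out both arrays with a low actin middle to 3' ratio gave 399 higher and 1556 lower, and 109 of the 109 rises and 458 of the 459 falls were among them. Leaving out the other pulse arrays instead gave 882 and 1755, which held 108 of the rises and 455 of the falls. Both omissions left pulse arrays that resembled each other, with a smaller spread, so the calls kept are not an independent check. With the prefix of the array code as a block, which leaves the ES arrays to estimate the change, 31 rose and 65 fell. Each called gene thus had all 4 pulse arrays on 1 side of steady state, and genes that moved far on some of the arrays only were not called.

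Genes at the front end of glucose sensing and uptake moved in the same direction on all 4 arrays. HXT1 (YHR094C), the low-affinity glucose transporter, gave 10.2, 9.7 and 4.6 at steady state, all at the floor, and 236, 1689.9, 2172 and 351 after the pulse. The rise was at least 61.9-fold (log2 5.95, SE 0.78, adjusted p = 0.0056), with a gap between the arrays of low actin ratio and the others. HXT3 (YDR345C), another low-affinity transporter, went from 108, 79.1 and 108 to 261, 1249, 1487 and 325 (log2 2.70, SE 0.65, adjusted p = 0.040). MTH1 (YDR277C), the repressor that keeps such genes off without glucose, went from 186, 179.7 and 177 to 8.2, 11.3, 11.8 and 8.2. All 4 pulse values of MTH1 were at the floor, so its fall was at least 15.1-fold (log2 -3.91, SE 0.17, adjusted p = 5.0e-05). MIG2 (YGL209W), a glucose repressor, went from 12.9, 7.2 and 8.3 to 43.2, 67.7, 41 and 52 (log2 2.02, adjusted p = 0.0025). SNF3 (YDL194W), the high-affinity glucose sensor, fell by 1.39 (adjusted p = 0.011), and the hexose transporter gene HXT10 fell by 1.32 (adjusted p = 0.048). In all, 3 of 17 genes of hexose transport and glucose sensing rose and 3 fell.

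The transporters of scarce glucose parted. HXT7 (YDR342C), a high-affinity transporter with a near-identical copy, HXT6, gave 3131, 3065 and 3172 at steady state and 3059, 699, 576 and 3271 after the pulse (log2 -1.14, SE 0.66, adjusted p = 0.28). HXT2 (YMR011W) gave 1636, 1864 and 1958 and then 2230.5, 194, 247 and 1427 (adjusted p = 0.26). HXT5 (YHR096C), a transporter of slow growth, gave 948, 787 and 914 and then 1666, 173, 169 and 1955 (adjusted p = 0.66). For HXT5 the steady state arrays lay between the pulse arrays: 10 min replicate 1 and 30 min replicate 2 were higher and the other pair lower than all of them. HXT4 gave 47.1, 48 and 30.6, then 59.1, 127, 122 and 24.6 (adjusted p = 0.40).

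**Figure D1:**
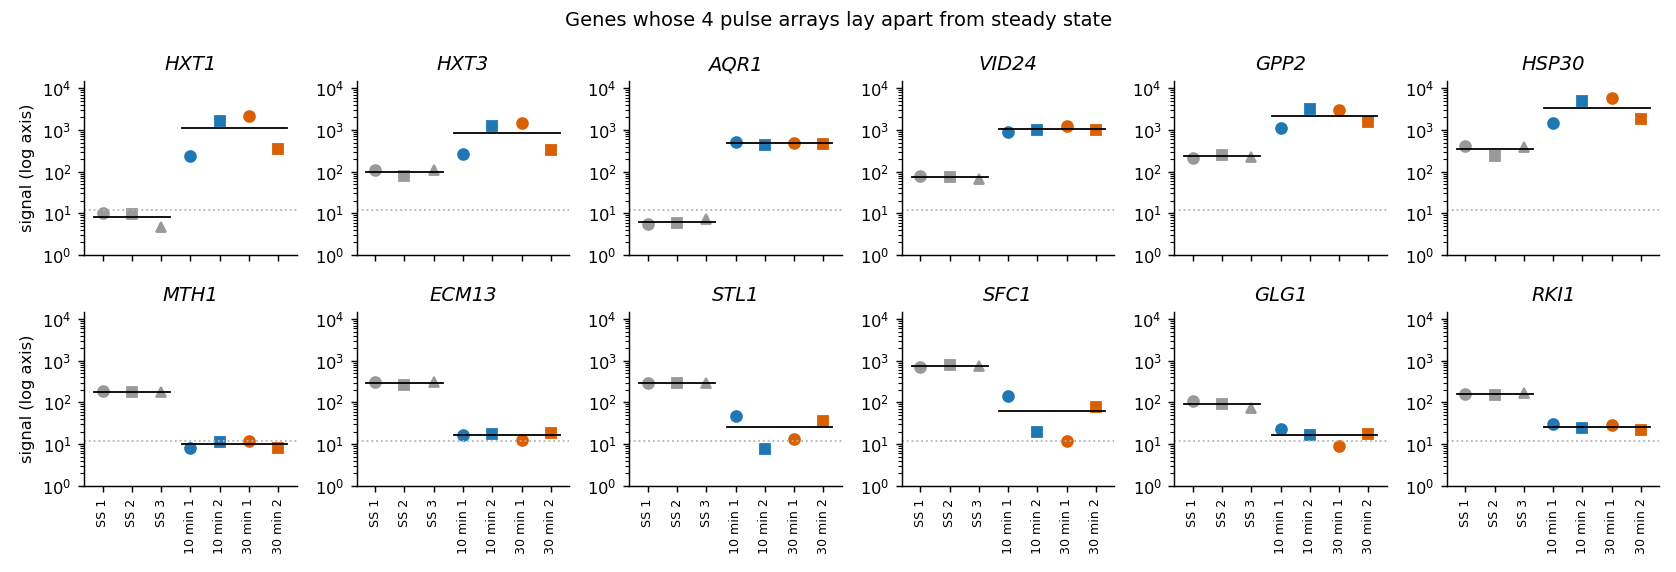
Signals (log axis) of 12 genes on the 3 steady state (SS) and the 4 pulse arrays of the deletion strain, with the mean of each group as a line and the floor of 12 dotted. In each panel the pulse arrays lie on 1 side of the steady state arrays, as for AQR1, whose pulse signals span 449 to 528.

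Genes of export, protein breakdown, phosphate uptake and glycerol production were among the rises. AQR1 (YNL065W), a plasma membrane exporter of weak acids and amino acids, was at the floor at steady state (5.6, 5.8 and 7.3) and gave 528, 449, 485 and 454 after the pulse. That was at least a 39.8-fold rise with the smallest adjusted p of the named genes (log2 5.32, SE 0.19, adjusted p = 2.7e-05), and the 4 pulse arrays were close to each other. VID24 (YBR105C), which hands gluconeogenic enzymes to the GID ubiquitin ligase for breakdown, went from 79.7, 75.9 and 66.5 to 908, 1029, 1284 and 989 (14.1-fold, log2 3.82, SE 0.21, adjusted p = 0.00016). Unlike the transcripts of the enzymes themselves, described below, VID24 was high on every pulse array. PHO84 (YML123C), the high-affinity phosphate transporter, went from 4.4, 6.4 and 8.7 to 259, 112, 104 and 264, a rise of at least 3.81 on the log2 scale (adjusted p = 0.0024). Here the arrays of low actin ratio were the lower ones. PHM8, a phosphatase of the phosphate regulon, also rose, from the floor to 55.5, 98.3, 117 and 59.5 (log2 2.71, adjusted p = 0.0029). They were the 2 of 15 phosphate regulon genes that passed, and none fell, while PHO5 was at the floor on all 7 arrays and was not tested.

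Glycerol production, the outlet for NADH when yeast ferments without oxygen, showed 3 rises among 11 genes of a list that was chosen after values were seen. GPP2 (YER062C), a glycerol-3-phosphatase, went from 219, 254 and 231 to 1126, 3174, 2974 and 1518 (8.56-fold, log2 3.10, SE 0.39, adjusted p = 0.0052). Its paralog GPP1 (YIL053W) went from 246, 455 and 463 to 2017, 3811, 3432 and 2255 (log2 2.90, adjusted p = 0.0038), and the probe sets of such close copies may share signal. GPD2 (YOL059W), the glycerol-3-phosphate dehydrogenase of anaerobic growth, went from 43, 47.6 and 53.8 to 489, 613, 164 and 396 (log2 2.96, adjusted p = 0.0090). Its paralog GPD1 (YDL022W), known for its role in osmotic stress, did not pass and gave 812, 709 and 745 and then 965, 85.3, 75.3 and 960.5. STL1 (YDR536W), which takes up glycerol, fell from 286, 292 and 287 to 46.8, 7.7, 13.3 and 35.5 (log2 -3.67, adjusted p = 0.0066).

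Other genes among the 12 largest rises were YDR222W (YDR222W; log2 4.66, adjusted p = 0.00073), the pheromone-regulated gene PRM7 (3.90, adjusted p = 0.0055), TYE7 (3.28, adjusted p = 0.0014), FSH1 (3.04, adjusted p = 0.0023) and YBR238C (2.95, adjusted p = 0.043). TYE7 (YOR344C), a transcription factor of glycolytic genes, went from 18.2, 12.9 and 15.4 to 154, 204, 101 and 158. FSH1 (YHR049W), a putative serine hydrolase, went from 235, 208 and 172 to 1185, 2109, 2393 and 1310.0. YBR238C was the least even of these 5, with 40.7, 381, 120.4 and 46.4 after signals of 8.8 to 13.6, partly at the floor.

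Among the falls, ECM13 (YBL043W), whose function is not known, went from 310.4, 264 and 311 to 16.5, 17.9, 12.8 and 18.3 (18.1-fold, log2 -4.18, SE 0.22, adjusted p = 0.00016). SFC1 (YJR095W), which brings succinate into mitochondria in exchange for fumarate during growth on small carbon sources, went from 722, 779.9 and 744 to 141, 19.8, 11.8 and 76.3 (log2 -4.23, adjusted p = 0.020). It was the only 1 of 24 genes of gluconeogenesis, the glyoxylate cycle and the use of acetate and ethanol to fall in this test. YMR206W, YPL113C, YIG1 and YGR067C fell by 3.80, 3.77, 3.71 and 3.69 (adjusted p from 0.0025 to 0.014). SUE1, which acts in the breakdown of unstable cytochrome c, MRK1, a kinase related to GSK3, and SPG1, named for survival in stationary phase, fell by 3.21, 3.03 and 2.98. SPG1 gave 84.3, 3, 7.6 and 72.7 against 187 to 297 at steady state and lay at an adjusted p of 0.049.

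Storage carbohydrate genes fell in part: 7 of 20 genes of glycogen and trehalose metabolism fell and none rose, beside 8.69% and 2.06% of all genes tested. The list median was -1.87 against -0.29 over all genes. GLG1 (YKR058W), a glycogenin that primes glycogen, went from 111, 89.3 and 75.2 to 22.5, 16.3, 8.9 and 17.1 (log2 -2.45, adjusted p = 0.0025), and its paralog GLG2 fell by 1.96. PGM2 (YMR105C), the major phosphoglucomutase, went from 399, 338 and 319 to 125, 16.1, 21.4 and 93.7 (7.81-fold, log2 -2.97, adjusted p = 0.043). NTH2 (YBR001C), a trehalase, fell from 228, 222 and 263 to 88.8, 46.8, 38 and 77.1, and GAC1, which directs a phosphatase to glycogen synthase, fell by 1.97. TPS1 (YBR126C), which makes trehalose phosphate, did not pass: its signals were 556, 416 and 486 and then 572, 50.4, 64.9 and 503. GPH1 (YPR160W), glycogen phosphorylase, gave 352, 348 and 236 and then 120.0, 7.3, 1.1 and 194 (adjusted p = 0.12). After quantile normalization 1 gene of this list was higher and 2 lower, as with a common median.

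**Figure D2:**
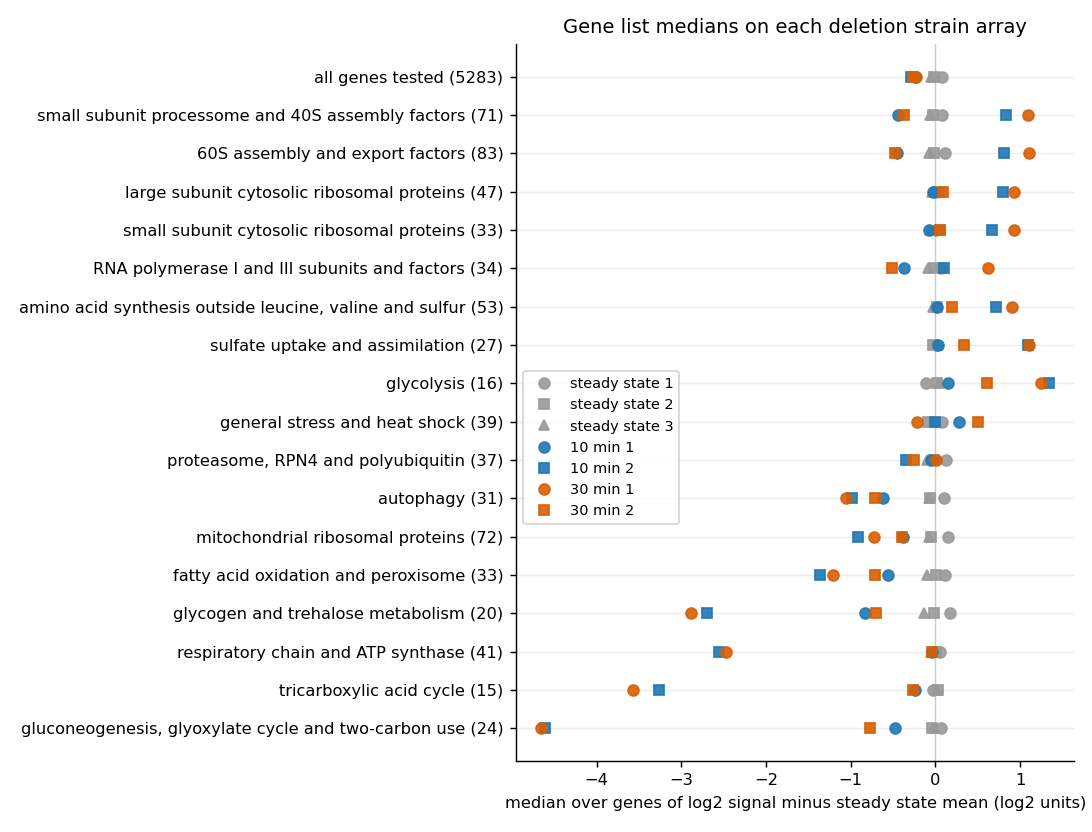
Median over the genes of each list of log2 signal minus the steady state mean (x axis, log2 units) on each of the 7 deletion arrays, with the number of genes tested in brackets. For gluconeogenesis 10 min replicate 2 and 30 min replicate 1 lie at -4.61 and -4.65 and the other pulse arrays at -0.47 and -0.77.

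Genes of central carbon metabolism parted widely between the arrays. Over the 24 genes of gluconeogenesis and the glyoxylate cycle the median change was -0.47, -4.61, -4.65 and -0.77 on the 4 arrays. Over 15 genes of the tricarboxylic acid cycle it was -0.24, -3.26, -3.57 and -0.27, and over 41 genes of the respiratory chain and ATP synthase -0.04, -2.55, -2.48 and -0.04. In these lists VID24 alone rose and SFC1 alone fell by limma, and 13, 2 and 6 genes were lower at an unadjusted p under 0.05. Over all genes 1247 of 5283 were lower at that threshold, so the 2 and the 6 lay under the share of all genes. The pooled medians were -2.75, -1.81 and -1.30, and the median SD over the pulse arrays was 1.97, 2.06 and 1.48 (log2), against 0.11, 0.09 and 0.10 at steady state. Of the neighbouring times, the gluconeogenesis list lay at 0.01 and -0.06 on the 5 min arrays of the deletion strain and at -4.95 and -5.20 on its 60 min arrays, relative to the same steady state. In the reference strain, against its own steady state, this list lay at -0.92 and -1.04 on the 10 min arrays. On the reference 30 min arrays it lay at -4.74 and -4.79. The tricarboxylic acid cycle list lay there at -0.28 and -0.28 at 10 min and at -4.41 and -4.46 at 30 min. For the respiratory chain list the reference values were -0.18 and -0.13 at 10 min and -4.08 and -3.88 at 30 min. Leaving out the arrays of low actin ratio gave 15, 6 and 5 falls in the 3 lists. Leaving out the other pulse arrays gave 22, 15 and 39. Over all genes these settings gave 1556 falls of 5229 and 1755 of 5241. The 5 respiratory chain falls were thus under the share of all genes. How far sampling time or RNA integrity had a part in this difference between the deletion arrays was not tested.

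Single genes showed the gap. FBP1 (YLR377C), the committing enzyme of gluconeogenesis, gave 783, 842 and 808 at steady state and 372, 16.1, 14.1 and 331 after the pulse (log2 -3.48, SE 1.26, adjusted p = 0.11). All 4 pulse arrays were lower than steady state, 2 of them by far. ICL1 (YER065C), isocitrate lyase, gave 2444, 2029 and 2199 and then 1413, 49, 42.2 and 1579.6 (adjusted p = 0.18), and MLS1, malate synthase, and PCK1, which makes phosphoenolpyruvate, had adjusted p = 0.17 and 0.16. SDH1 (YKL148C), succinate dehydrogenase, gave 778, 797 and 777 and then 535, 21.2, 10.4 and 575 (adjusted p = 0.19). CYC1 (YJR048W), cytochrome c, gave 1015, 1009 and 959 and then 793, 88.9, 104 and 722 (adjusted p = 0.18). COX5A (YNL052W), the aerobic form of a cytochrome c oxidase subunit, gave 702, 939 and 971 and then 1289, 178, 27.4 and 1295 (adjusted p = 0.44), so its pulse arrays lay on both sides of steady state. SDH1 was chosen after its values were seen.

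**Figure D3:**
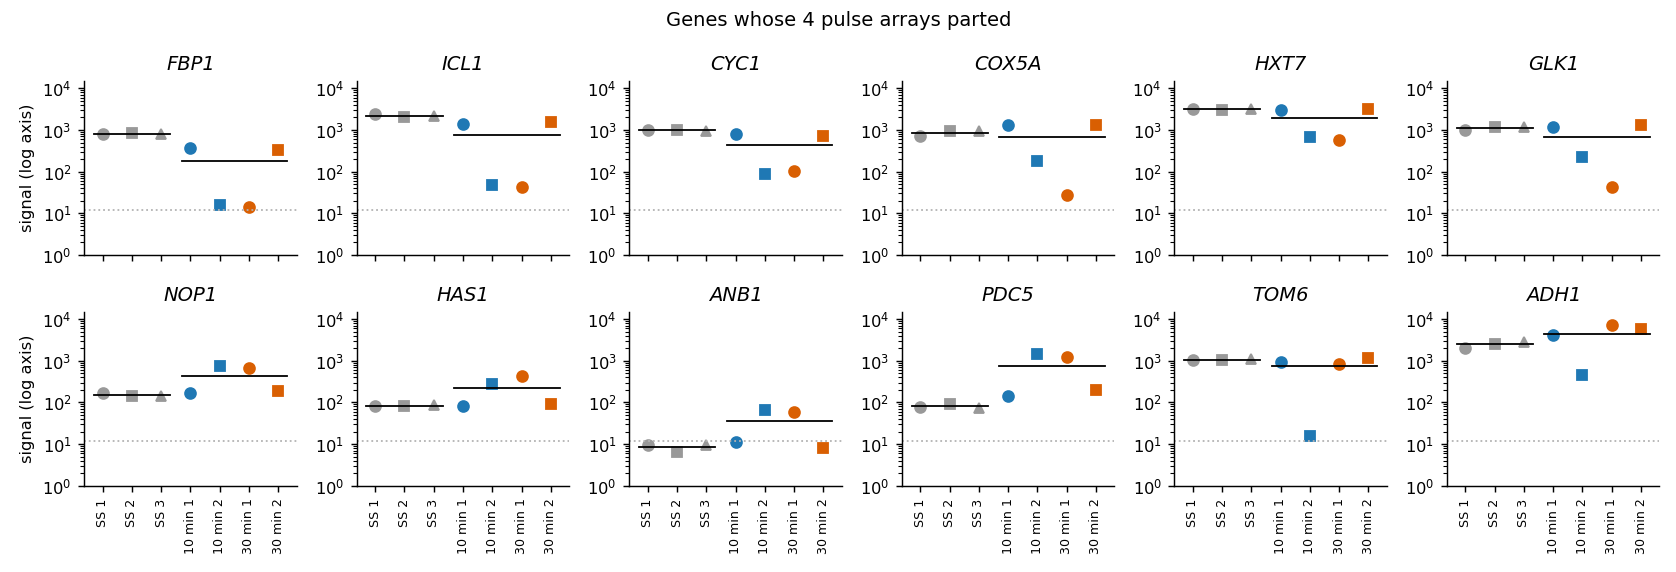
Signals (log axis) of 12 genes on the steady state (SS) and pulse arrays of the deletion strain, with group means as lines and the floor of 12 dotted. In most panels 10 min replicate 2 and 30 min replicate 1 lie together and away from the other 2 pulse arrays, as for FBP1 (16.1 and 14.1 against 372 and 331), whereas TOM6 and ADH1 are low on 10 min replicate 2 alone.

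Part of the glycolysis genes rose. Of 16 glycolysis genes 3 rose and none fell, with a median of 0.86, and the per-array medians were 0.15, 1.34, 1.25 and 0.60. PFK1 (YGR240C), a phosphofructokinase subunit, went from 896, 896 and 884 to 1546, 3567, 3504 and 1889.6 (log2 1.46, SE 0.34, adjusted p = 0.036). ENO1, enolase, rose by 1.15 (adjusted p = 0.047) and PGI1, phosphoglucose isomerase, by 1.14 (adjusted p = 0.028). Of 13 genes of fermentation 1 rose and none fell, with a median of -0.10 and per-array medians of 0.10, -0.99, -0.04 and 0.49. ALD6 (YPL061W), an aldehyde dehydrogenase of acetate production, gave 1644, 1654 and 1793 and then 1004, 56, 42.3 and 816 and did not pass (adjusted p = 0.14). PDC1 (YLR044C), the main pyruvate decarboxylase, went from 1192, 1632 and 1560.2 to 2945, 5974, 6777 and 2995 (log2 1.59, adjusted p = 0.034). Its paralog PDC5 (YLR134W) gave 78.3, 91.5 and 74.9 and then 146, 1413, 1214 and 197, and at an adjusted p of 0.091 it did not pass although all 4 pulse arrays were higher. The glucose kinase of scarce glucose, GLK1, gave 1009, 1197 and 1206 and then 1158, 231, 42.2 and 1312 (adjusted p = 0.33).

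Several chaperone genes were higher on every pulse array. In the list of general stress and heat shock genes, 10 of 39 rose and 1 fell, beside 2.06% and 8.69% of all genes tested. The list median was 0.42 against -0.29 over all genes. The per-array medians of this list were 0.28, -0.01, -0.21 and 0.50. The 10 were HSP30, YRO2, SSE2, SSA4, SSA2, MRH1, SPI1, YGP1, YDJ1 and HSP82, and the 1 that fell was GAD1, glutamate decarboxylase (-1.26). HSP30 (YCR021C), a plasma membrane protein that restrains the proton pump, went from 415, 239 and 388 to 1450.0, 4901, 5730.2 and 1808 (8.68-fold, log2 3.12, SE 0.53, adjusted p = 0.014). YRO2 and MRH1, its relatives in sequence, rose by 2.10 and 1.39.

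The Hsp70 and Hsp90 machines were counted in a list of their own, chosen after values were seen: 10 of 28 genes rose and none fell, and 15 rose with a common median. Over all genes tested, 2.06% rose and 8.69% fell. Genes of the stress list recur here, SSA4, SSE2 and HSP82 among them, so the 2 lists are not separate. As this list was chosen after values were seen, its count cannot test an excess. The median of this list was 0.77, 0.72, 0.86 and 0.71 on the 4 pulse arrays, so by list median the arrays that parted in carbon metabolism lay together here. Single genes were spread: their median SD over the pulse arrays was 0.49 (log2), against 0.21 at steady state. Over all genes tested the median SD over the pulse arrays was 0.48. SSA4 (YER103W), a heat-inducible Hsp70, went from 301, 212 and 243 to 483, 805, 1244 and 605 (log2 1.56, SE 0.34, adjusted p = 0.031). SSE2 (YBR169C), a nucleotide exchange factor of Hsp70, went from 579, 433 and 429.6 to 1112, 1742, 2067 and 1121 (log2 1.61, adjusted p = 0.018). FES1, another such factor, rose by 1.68 (adjusted p = 0.012) and BTN2 (YGR142W), which sorts misfolded protein, went from 237, 149 and 196 to 1957, 405, 740.4 and 1645 (adjusted p = 0.034). HSP82, 1 of the Hsp90 genes, rose by 1.14 and its co-chaperone STI1 by 1.00. At 60 min the list's median in the deletion strain was -0.66 and -0.50 on the 2 arrays, below steady state.

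The well-known stress markers did not all follow. HSP12 (YFL014W), a membrane stress protein, gave 3675, 3457 and 3666 and then 4371, 5673, 6072 and 5777, all higher (log2 0.59, adjusted p = 0.11). HSP104 (YLL026W), the disaggregase, gave 572, 556 and 572 and then 1285, 738, 1009 and 1013 (log2 0.81, adjusted p = 0.069), and HSP26, a small heat shock protein, was at 0.44 (adjusted p = 0.18). CTT1 (YGR088W), cytosolic catalase, gave 49.4, 8.6, 8.2 and 40.5 after 14.1 to 21.5 at steady state, on both sides of it. In the endoplasmic reticulum, a list of 18 folding genes chosen after values were seen had 2 rises and 2 falls. ERO1 (YML130C), the oxidase that forms disulphide bonds with oxygen as acceptor, went from 20.4, 21.7 and 24.4 to 152, 130.1, 146 and 132 (6.32-fold, log2 2.66, adjusted p = 0.00073). KAR2, the Hsp70 of that compartment, rose by 1.12, and MPD1 and CPR5 fell by 1.82 and 1.23.

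Ribosome production, the best-known program under Sfp1, gave few calls in the pooled test. None of 47 large subunit and none of 33 small subunit ribosomal protein genes passed limma's test, with medians of 0.43 and 0.32. At an unadjusted p under 0.05, 4 of the large subunit genes were higher and none lower, and 0 of the small subunit genes differed. On the 4 arrays the large subunit median was -0.03, 0.80, 0.92 and 0.08. RPS3 (YNL178W) gave 3592, 3639.8 and 3076 and then 3631, 6686, 6966 and 3789.6 (log2 0.55, adjusted p = 0.26). RPL3 (YOR063W) was lowest on 30 min replicate 1: its signals were 436, 639 and 790.4 and then 644, 688, 316 and 609. Many ribosomal protein genes have close paralogs, and those counted are the 47 of 81 and 33 of 56 listed genes with a probe set that names a single gene.

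Assembly factors parted to both sides of steady state. Over 71 genes of the small subunit processome and 40S assembly the medians were -0.45, 0.83, 1.09 and -0.38, and over 83 genes of 60S assembly and export -0.45, 0.81, 1.10 and -0.48. Without the arrays of low actin ratio 1 small subunit gene was higher and 23 were lower, with a median of -0.47. Over all genes this setting gave 399 higher and 1556 lower of 5229, with a median of -0.27. Without the other pulse arrays 47 small subunit genes were higher and none lower, with a median of 0.94. Over all genes that setting gave 882 higher and 1755 lower of 5241, with a median of -0.27. The direction of the small subunit median on the deletion arrays thus turned with the arrays used. The 23 falls were near the share of falls over all genes. On its 5 min arrays the small subunit list lay at -0.28 and -0.27 and on its 60 min arrays at 1.34 and 0.85. NOP1 (YDL014W), the fibrillarin of the nucleolus, gave 165, 143 and 143 and then 167, 735, 678 and 186 (adjusted p = 0.20), and HAS1 (YMR290C), an RNA helicase, gave 81, 82.4 and 86 and then 83.8, 279, 438 and 89.7 (adjusted p = 0.26).

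A few genes of these lists passed the test. NSR1 (YGR159C), a nucleolin-like protein, was the 1 small subunit gene that rose, from 198, 205 and 255 to 469.5, 1982, 1261 and 509 (log2 2.01, SE 0.52, adjusted p = 0.048). LOC1 (YFR001W), which acts in 60S assembly and in mRNA localization, fell from 238, 178 and 196 to 79.9, 78.6, 103 and 67.5 (log2 -1.32, adjusted p = 0.017). ECM1, which helps export the 60S subunit, fell by 0.95 (adjusted p = 0.048). RRN3 (YKL125W), the factor that brings RNA polymerase I to rDNA, fell from 53.8, 48 and 54.1 to 7, 19.4, 31.8 and 0.7 (adjusted p = 0.032), and was the 1 gene called of 34 for RNA polymerases I and III. Among 13 regulators of ribosome genes, CRF1, a corepressor of ribosomal protein genes, fell by 1.72 (adjusted p = 0.011), and HMO1, which binds rDNA and ribosomal protein promoters, by 1.03 (adjusted p = 0.030). None of 30 translation factor genes passed (at an unadjusted p under 0.05, 1 was lower), and 1 of 20 cytosolic tRNA synthetase genes rose: KRS1, for lysine (log2 1.50).

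Supply of amino acids and nucleotides rose in single genes. Of 53 amino acid synthesis genes 4 rose and 1 fell. HOM3 (YER052C), aspartate kinase, went from 194, 151 and 155 to 1124, 877, 1005 and 789 (5.68-fold, log2 2.51, SE 0.22, adjusted p = 0.0014). GLN1 (YPR035W), glutamine synthetase, went from 1019.9, 939 and 1153 to 3431, 3369, 3004 and 3825 (log2 1.72, adjusted p = 0.0038). Both were even over the 4 arrays, and ASN1, asparagine synthetase, and CPA1, for arginine, rose by 1.90 and 1.07. TRP4, of tryptophan synthesis, fell from 185, 187 and 176 to 36.7, 71.7, 72.5 and 76. In the leucine and valine pathway LEU2 and OAC1, a mitochondrial carrier, were the 2 of 14 that rose. In sulfur assimilation MUP1, the methionine permease, rose by 1.85 (adjusted p = 0.0092) and MHT1, a homocysteine methyltransferase, fell by 1.60 (adjusted p = 0.0049), among 27 genes. Of 38 nucleotide synthesis and uptake genes FCY2, the purine and cytosine permease, and ADE12, adenylosuccinate synthase, rose by 1.59 and 1.33, and none fell.

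Some mitochondrial ribosome and peroxisome genes fell, beside 8.69% of all genes tested. Of 72 mitochondrial ribosomal protein genes 10 fell and none rose, with a median of -0.68 and per-array medians of -0.38, -0.91, -0.72 and -0.40. After quantile normalization 2 of them were lower, and 2 with a common median. MRP20 (YDR405W) went from 50.4, 51.5 and 65.3 to 14, 24, 8.3 and 18.8 (log2 -1.74, adjusted p = 0.011), and MRPL39 fell by 1.53. In fatty acid oxidation and the peroxisome 5 of 33 genes fell, and 1 was lower after quantile normalization and 2 with a common median. Both subunits of the fatty acid importer, PXA1 and PXA2, were at -2.85 (adjusted p = 0.024) and -2.32 (adjusted p = 0.0090). PXA2 (YKL188C) went from 90.5, 83.2 and 87.3 to 28.2, 8.2, 3.7 and 22.7, with 2 pulse arrays at the floor. FOX2 (YKR009C), the second enzyme of peroxisomal beta-oxidation, gave 1161, 26.5, 21.4 and 1057 after 1221 to 1281 at steady state and did not pass (adjusted p = 0.23).

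The autophagy list was low on every pulse array by median, at -0.62, -0.98, -1.06 and -0.72. Of its 31 genes 7 fell, beside 8.69% of all genes tested: ATG40, ATG21, ATG27, ATG19, SNX4, ATG10 and ATG14. ATG40 (YOR152C), a receptor for the turnover of the endoplasmic reticulum, went from 53.6, 43.9 and 41 to 22.6, 14.9, 13.8 and 11 (adjusted p = 0.011). With a common median 1 of them was lower and after quantile normalization none.

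Genes of cell division were lower on all 4 arrays by median. Of 55 genes of nuclear DNA replication, a list chosen after values were seen, 20 fell and none rose, beside 8.69% and 2.06% of all genes tested. The per-array medians were -0.78, -0.74, -0.50 and -0.91. The count was 4 with a common median and 1 after quantile normalization, so the number called rested on the scale used. CDC45 (YLR103C), which loads the replicative helicase, went from 87.3, 88.6 and 90.1 to 21.4, 32.6, 37.1 and 24.8 (log2 -1.65, SE 0.25, adjusted p = 0.0092). POL30, the sliding clamp PCNA, was at -1.81 (adjusted p = 0.038), RNH201, a ribonuclease H2 subunit, at -2.06 (adjusted p = 0.014), and RFA3, of the single-strand binding protein RPA, at -1.73 (adjusted p = 0.029). At the entry to the cycle, 3 of 15 genes of Start fell, beside 8.69% of all genes tested. The Start list had per-array medians of -0.72, -0.35, -0.39 and -0.39. Its pooled median was -0.24, not below the -0.29 of all genes. SWI4 (YER111C), which activates the G1 cyclin genes, went from 46.1, 38.6 and 34.3 to 13.3, 10.6, 12 and 13.5 (log2 -1.63, adjusted p = 0.0021). Its targets CLN1 and CLN2 fell by 1.50 (adjusted p = 0.019) and 0.94 (adjusted p = 0.030), and CLN3 did not pass (adjusted p = 0.95). After quantile normalization CLN2 was at -0.47 (adjusted p = 0.19) and with a common median at -0.49 (adjusted p = 0.17), and with a common median CLN1 had an adjusted p of 0.055.

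The remaining lists gave at most 1 call each. ERG24, a sterol reductase, fell by 1.85 (adjusted p = 0.049), the 1 called of 25 ergosterol genes. None of 18 hypoxic and anaerobic genes passed limma's test, and at an unadjusted p under 0.05 none was higher and 4 were lower. That is near the share of all genes, 1247 of 5283 lower. ANB1 (YJR047C), the hypoxic eIF5A, gave 9.3, 6.5 and 9.3 and then 11.3, 65.7, 60.1 and 8.1 (adjusted p = 0.26), so it was above the floor on the arrays of low actin ratio alone. DAN1, an anaerobic cell wall protein, was at the floor on all 7 arrays. None of 37 proteasome genes passed (median -0.17), and 1 was lower at an unadjusted p under 0.05. GSH2, glutathione synthetase, was the 1 of 25 antioxidant genes that fell (log2 -0.98), FRE2, a ferric reductase, the 1 of 14 iron uptake genes (log2 -1.27, pulse arrays partly at the floor), and ASG7 the 1 of 21 mating genes (log2 -1.31).

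**Figure D4:**
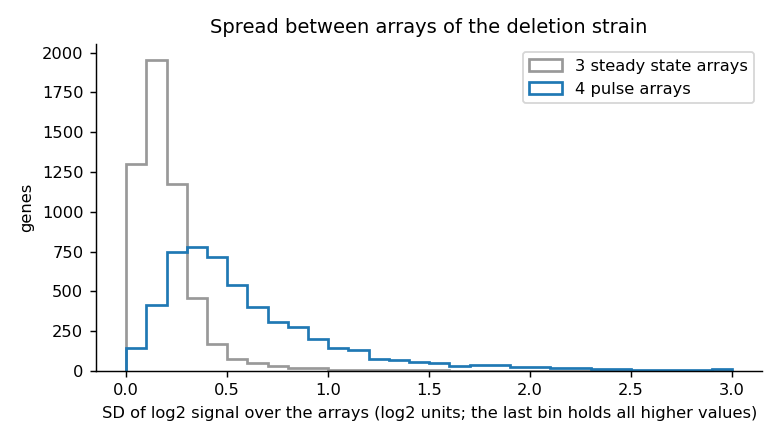
Number of genes (y axis) by SD of log2 signal (x axis) over the 3 steady state and the 4 pulse arrays of the deletion strain, for 5283 genes. The pulse arrays spread more widely, with a median SD of 0.48 against 0.17.

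The spread between the 4 arrays can be put in numbers for the whole array set. The median SD of log2 signal was 0.48 over the pulse arrays and 0.17 over the steady state arrays, and the pulse SD was the larger in 4661 of 5283 genes (88.2%). It exceeded 1 in 757 genes (14.3%), against 24 at steady state. Without the arrays of low actin ratio the median SD was 0.17, and without the other pulse arrays it was 0.24. Against the steady state mean, 169, 536, 562 and 212 genes were over 2-fold higher on the 4 arrays and 609, 1414, 1327 and 707 over 2-fold lower. The median gene moved alike on them, by -0.24, -0.29, -0.23 and -0.26. In 688 genes the mean change exceeded 2-fold and yet the test was not passed.

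The widest genes held other patterns as well. TOM6 (YOR045W), a subunit of the mitochondrial import pore, gave 1022, 1048 and 1092 and then 959, 15.7, 830.1 and 1152, low on 10 min replicate 2 alone. ADH1 (YOL086C), the main alcohol dehydrogenase, gave 2063, 2545 and 2874 and then 4156, 465, 7395 and 5725, with the same array alone low. ZPS1 (YOL154W), a cell wall protein of zinc-poor growth, gave 246, 34, 2269.8 and 323 after 276 to 306 at steady state, so the arrays of low actin ratio were opposite here. YOR302W, the leader reading frame upstream of CPA1, varied also at steady state (23.1, 351 and 1209, then 1776, 2274, 15.9 and 2401), with the lowest signals on the arrays with the lowest 5' to 3' actin ratio. COX26 (YDR119W-A), which binds respiratory supercomplexes, gave 789, 15.5, 13 and 777 after 932 to 1088.

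Whether the pooled change differed from that of the reference strain was tested gene by gene in 14 arrays. In 1 of 5329 genes (0.0188%) the change in the deletion strain was higher and in 7 (0.131%) lower than in the reference, at an adjusted p under 0.05. At an unadjusted p under 0.05 the counts were 330 and 348. Leaving out any 1 of the 3 reference steady state arrays gave 0 higher and 2 or 3 lower by limma (220 to 274 higher at an unadjusted p under 0.05), and leaving out the deletion array labelled 30 min replicate 1 gave 8 and 15. Without both arrays of low actin ratio 161 differences were higher and 382 lower, and without the other pulse arrays 23 and 17. These fits kept all 4 reference pulse arrays. The deletion arrays left were more alike to reference 10 min in the first fit and to reference 30 min in the second. Time may thus be unbalanced between the strains there, and its part in these counts cannot be told from that of strain.

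The clearest difference was in RKI1 (YOR095C), ribose-5-phosphate isomerase of the pentose phosphate pathway, which makes the ribose of nucleotides. In the deletion strain it went from 163, 151 and 164 to 29.8, 24.9, 28.7 and 21.6 (6.11-fold lower, log2 -2.61, adjusted p = 0.00094), and in the reference from 138 ± 25 (SD, n = 3) to 122 ± 9.76 (SD, n = 4). The difference of the changes was -2.45 (SE 0.28, adjusted p = 0.0051). GFD2 (YCL036W), named for its link to the DEAD-box mRNA export helicase Dbp5, went from 61.2, 54.3 and 54.6 to 23.6, 39.3, 21.9 and 30.9 in the deletion strain and from 45.7 ± 12 to 170.2 ± 31.2 in the reference. The strains moved in opposite directions, and the difference was -2.92 (SE 0.37, adjusted p = 0.0077). YOR342C went from 89.7, 101 and 109 to 57.2, 63.4, 35 and 43.1 and from 167 ± 26.1 to 394 ± 50.2 in the reference (difference -2.28, adjusted p = 0.015).

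Among the 7 were 2 genes of 60S assembly. LOC1, whose fall in the deletion strain is given above, went from 118 ± 13.5 to 181 ± 37.1 in the reference (difference -1.91, adjusted p = 0.040). SDO1 (YLR022C), which frees new 60S subunits of eIF6, gave 19.9, 14.4 and 17.7 and then 21.7, 28.5, 32 and 15.6 in the deletion strain and went from 21.6 ± 3.44 to 133 ± 29.3 in the reference (difference -2.15, SE 0.37, adjusted p = 0.040). The median change over the 83 genes of that list was 0.19 in the deletion strain and 1.63 in the reference, and over the 71 small subunit genes 0.21 and 1.63. LOC1 is in that 60S list and SDO1 is not, and no other gene of the ribosome lists passed. The difference of SDO1 was no longer called in 19 alternative settings and was called in 11, and that of LOC1 in 17 and 13.

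YLR287C and the noncoding RNA gene YNCB0011C differed by less than 1 on the log2 scale (-0.92, adjusted p = 0.0098, and -0.96, adjusted p = 0.014), with signals near the floor. YNCB0011C gave 24.2, 20.3 and 27.2 and then 7.9, 11.8, 12.9 and 6.6, and in the reference it was at 7.27 ± 1.23 and 5.67 ± 4.42. Both reference means were under the floor, so its difference rests on the fall in the deletion strain and cannot show how the reference changed. The 1 gene with a higher change in the deletion strain, RBH2 (YJR030C), went from 20.6, 14.7 and 11.8 to 6.8, 21.3, 6.7 and 13.3 there, and from 46 ± 3.11 to 5.95 ± 4.6 in the reference (difference 1.82, adjusted p = 0.029). The reference fall is bounded by the floor. This difference was no longer called in 16 alternative settings and was called in 12.

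**Figure D5:**
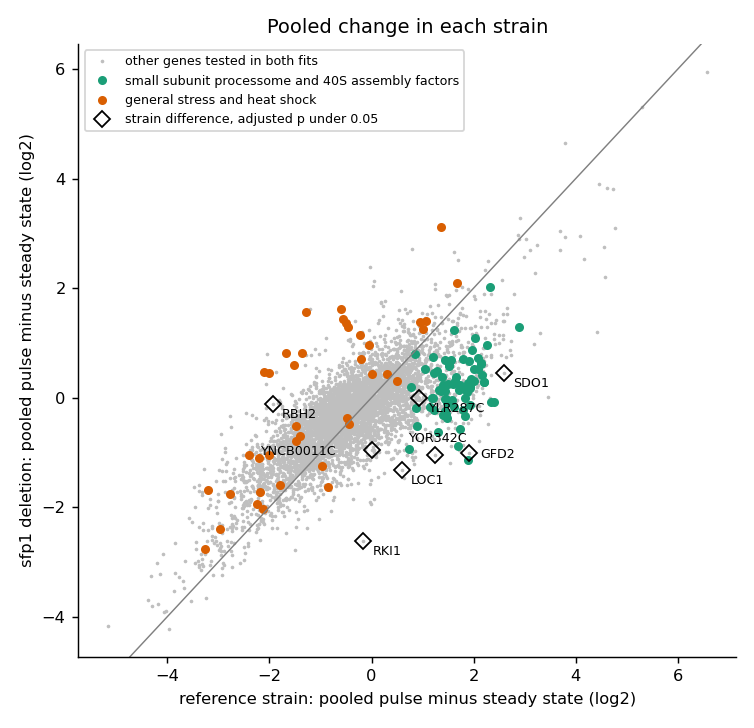
Pooled change (log2) in the reference strain (x axis) and in the deletion strain (y axis), a point per gene, with equal change as a line. Small subunit processome genes lie below the line (list medians 1.63 and 0.21), many stress genes lie above it (-1.29 and 0.42), and the 8 genes whose difference passed are ringed.

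Chaperones showed the reverse pattern without passing. The median change of the stress list was 0.42 in the deletion strain and -1.29 in the reference, and that of the Hsp70 and Hsp90 list 0.82 and -0.19. These reference medians pool 2 unlike times. By array, the reference stress list lay at -0.21 and -0.11 at 10 min and at -1.94 and -2.10 at 30 min. The reference Hsp70 and Hsp90 list lay at 0.15 and 0.22 at 10 min and at -0.85 and -0.66 at 30 min. SSA4 went from 151 ± 28.4 to 73.5 ± 47.4 in the reference, a difference between strains of 2.85 (SE 0.68, adjusted p = 0.12). SSE2 differed by 2.21 (SE 0.50, adjusted p = 0.12), HSP104 by 2.49 (adjusted p = 0.31) and HSP26 by 2.45 (adjusted p = 0.33). At the front end of the glucose response the change of MTH1 was -3.91 in the deletion strain and -4.07 in the reference (difference 0.16, SE 0.19), and that of AQR1 5.32 and 5.30 (difference 0.01, SE 0.24). For HXT1 the changes were 5.95 and 6.56 (difference -0.61, SE 1.00), and all 3 pairs are bounded by the floor. For GPP2 the changes were 3.10 and 4.76, and the deletion strain began from a higher steady state, 219 to 254 against 49.3 ± 5.75 (difference -1.67, SE 0.45, adjusted p = 0.15).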

How the data were processed

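The authors deposited a linear signal intensity for each probe set, from GCOS per the submitters' processing notes, with no version or settings given in the sources used here. The 2% trimmed mean was 149.9 to 150.0 on every array, so no scaling was added. Of 9335 probe sets, 60 controls were left out, and 6504 named 1 gene (5656 genes); 328 named several and 2443 none, and these were not used. For 315 genes with several probe sets the brightest was used. Signals were floored at 12, and a gene was tested if at least 2 arrays exceeded the floor. Groups were compared with limma 3.58.1 in R 4.3.3 (lmFit, eBayes with an intensity trend), two-sided, with Benjamini-Hochberg adjustment over all genes tested: the pooled change in 7 deletion arrays (5 residual and 2.78 prior degrees of freedom), the strain difference in 14 arrays of 4 groups (10 and 2.96). Fold changes are ratios of geometric means, and a bound from below where every array of 1 group was at the floor. SE is limma's. The number of arrays limits the precision. The members, the lists and the rule for named genes were chosen with earlier results of these data known, and 4 lists (glycerol, DNA replication, Hsp70 and Hsp90, endoplasmic reticulum folding) after values were seen. Named are the 12 largest called rises and falls, up to 4 called genes per list, 8 strain differences per direction, the 6 widest genes over the pulse arrays and a set of markers; other genes were chosen after their values were seen. On data simulated on 5278 genes, the test found 6 of 100 genes altered by 1 (log2), 77 of 100 altered by 2 and 2 unaltered genes. The simulation drew the arrays independently, with 1 SD per gene for both groups. The real pulse arrays spread more than steady state and may share cultures, so these rates need not hold for them. Alternatives covered scaling, floor, filter, probe sets, trend, arrays in the fit, blocks, weights and omitted arrays. Sequences were not used here. Figures were drawn with matplotlib 3.10.9.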

Additional observations from a re-analysis of the deposited data

Results flagged for a closer look

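Among the 4 pulse arrays of the deletion strain, 1 array lay apart from the others for 5 named genes, by a gap to its nearest neighbour divided by the whole range that exceeded Dixon's 95% critical value for 4 samples. The ratios were 0.920 for TRP4 (36.7 on 10 min replicate 1 against 71.7 to 76), 0.924 for ATG21 (21 on the same array against 37.3 to 39.1), 0.937 for CLN2 (46.9 on 30 min replicate 1 against 53.8 to 54.3), 1 for FRE2 and 1 for YNCB0011C. For FRE2 and YNCB0011C the other 3 arrays were at the floor of 12, and 30 min replicate 1 gave 15.9 and 12.9. Chance flags about 1 in 20 groups of 4, and 77 of the named genes were called.

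The pooled change differed between the strains, by the test of the difference itself, in 8 genes: RBH2 by 1.82, GFD2 by -2.92, RKI1 by -2.45, YOR342C by -2.28, SDO1 by -2.15, LOC1 by -1.91, YNCB0011C by -0.96 and YLR287C by -0.92. The call was lost under 19 alternatives for SDO1, 17 for LOC1, 16 for RBH2, 9 for YNCB0011C, 7 for YOR342C, 6 for YLR287C and 1 each for GFD2 and RKI1. For YNCB0011C both reference means were under the floor, so its change in the reference could not be read.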

How the results depend on the processing

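Counts below are higher and lower genes of the pooled change, and then of the strain difference. As reported they were 109 and 459, and 1 and 7. Quantile normalization gave 153 and 111 (0 and 3), a common median 239 and 114 (0 and 4), a floor of 48 gave 105 and 495 (24 and 61), and log2 of the signal plus 1 without a floor 102 and 336 (0 and 3). No filter gave 102 and 432 (7 and 10), genes with a group mean over 96 gave 80 and 185 (0 and 4), all probe sets 107 and 448 (1 and 7), and no intensity trend 112 and 443 (0 and 4). A fit of all 26 arrays gave 494 and 1714 (78 and 105), array weights 436 and 1610 (407 and 744), and 10 and 30 min fitted apart 59 and 229 (43 and 31). The prefix of the array code as a block gave 31 and 65 (0 and 3). An adjusted p under 0.01 left 33 and 79 (0 and 3), and a change of at least 2-fold 94 and 357 (1 and 5). Without the arrays of low actin ratio the counts were 399 and 1556 (161 and 382), without steady state replicate 1 as well 308 and 1140 (85 and 227), and without the other pulse arrays, a setting chosen after seeing the data, 882 and 1755 (23 and 17). The reference pulse arrays all stayed in these fits, so time may be unbalanced between the strains. Where limma gave 0, between 122 and 440 genes were higher at an unadjusted p under 0.05. Leaving out 1 array in turn gave 26 to 173 higher and 56 to 543 lower for the pooled change, and 0 to 8 and 2 to 15 for the strain difference.

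The replicate number as a replicate block left 7 and 13 genes of the pooled change and 0 and 0 strain differences. Deviations from the group means of same-numbered 10 and 30 min arrays correlated at -0.719. Those of same-numbered steady state and pulse arrays correlated at 0.02 to 0.30, and those of differently numbered ones at -0.296 to 0.286. Within each pulse time the deviations of the arrays mirror each other, so 10 and 30 min arrays of different number correlated at 0.719. The value of -0.719 therefore cannot tell numbers that do not pair the samples from exchanged time labels. Whether the numbers pair the samples was not tested. With the numbers of the 30 min arrays exchanged, chosen after seeing the data, the replicate block left 58 and 231.

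The median SD over the pulse arrays, 0.478, was 0.410 with a floor of 48, 0.172 without the arrays of low actin ratio, 0.173 without steady state replicate 1 as well, 0.241 without the other pulse arrays, and 0.417 to 0.494 with 1 array left out. Of 77 called named genes, 77 stayed called without either set of 2 pulse arrays, 47 after quantile normalization, 53 with a common median, 26 with the prefix block and 8 with the replicate block. Either omission of 2 arrays left pulse arrays that resembled each other, so the 77 are not an independent check. HXT5 turned to 1.04 without the arrays of low actin ratio (adjusted p = 0.0012) and 1.09 without steady state replicate 1 as well (adjusted p = 0.0070), and COX5A to 0.58 (adjusted p = 0.023) and 0.44 (adjusted p = 0.044). The cause of these changes was not tested. A p over the threshold does not show that a gene did not change.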
